A study of Mus musculus with 6 samples.

Results

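The genes described here are 45 genes of microglia and of the complement system, read in cortical tissue of newborn mice. They were taken by their single gene symbol in the platform annotation, each through its brightest probe set, by the mean of the 6 arrays. Of the 45, 43 were measured among 18193 genes, and C3 and Spp1 are not analysed here. The tissue was subiculum and retrosplenial cortex dissected on postnatal day 1. The D6/Zbtb20S group had 3 arrays from transgenic mice, whose dissected areas are described in the labels as transformed towards CA1. The wildtype group had 3 arrays from littermates, and all animals were on a C57BL/6 background. Each array held RNA pooled from 7 animals, so animal-to-animal spread is not seen, and whether the pools within a group derive from different litters is not stated. The p-values therefore measure the spread between these pools, which may be technical. The name D6 refers to an enhancer of the mouse Dach1 gene that is active in developing cortex and hippocampus, and the sources used here do not state which cells of the transgenic mice carried the transgene product.

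Microglia are the resident macrophages of the brain. They arise from yolk sac progenitors, depend on signalling through the receptor Csf1r, and in the early postnatal cortex clear dying cells and trim synapses, partly through complement proteins laid on the synapse. Genes such as Cx3cr1, P2ry12 and Gpr34 mark the surveying, or homeostatic, state, while Fc receptors, lysosomal proteases and costimulatory molecules are used in phagocytosis and activation.

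Values are log2 signals, and a change is D6/Zbtb20S minus wildtype on that scale with its standard error from limma, a linear model with a variance shared across genes. A gene was called when its adjusted p (Benjamini-Hochberg over all genes) was under 0.05. Over all genes 7.71% were called, 4.06% higher and 3.64% lower. A Zbtb20 probe set read 8.88, 9.10 and 8.94 in transgenic arrays and 6.44, 5.84 and 7.64 in wildtype arrays, so wildtype replicate 3 stood apart from the other wildtype arrays. The actin control, read at its 3' end relative to its 5' end as a sign of RNA quality, differed by 0.80 to 0.91 in transgenic arrays and 0.53, 0.88 and 1.31 in wildtype replicates 1, 2 and 3. D6/Zbtb20S replicate 3 had the highest array median, 3.97, against 3.83 to 3.91 in the other arrays. Of the 7 neuronal markers measured, all but Slc17a7 had group means well above the array medians, and Slc17a7 averaged 4.15 in transgenic and 4.06 in wildtype arrays. Tbr1 and Snap25 were lower in transgenic tissue, as given with the other lists.

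Of the 43 measured members, 10 were higher in transgenic tissue, 1 was lower and 32 were not called. The called share was 25.6%, against 7.71% of all genes. The genes called higher were Cx3cr1, Ly86, Tyrobp, Fcgr3, Cd68, Fcer1g, Fcrls, Ctss, Cd86 and P2ry6, with changes from 0.38 to 0.87, and the gene called lower was the ligand gene Gas6. Changes were positive for 36 members, where 45.9% of all genes had a positive change. The median change was 0.21 over the members and -0.02 over all genes. In 20 members all transgenic arrays lay above all wildtype arrays, a pattern that 12.9% of all genes had. Without wildtype replicate 3, 12 members were higher and 1 lower. Without D6/Zbtb20S replicate 3, 8 were higher and 2 lower, and without wildtype replicate 2 only 5 were higher and 0 lower. Over all genes 739 were higher with all arrays, 922 without wildtype replicate 3, 514 without D6/Zbtb20S replicate 3 and 376 without wildtype replicate 2. The lower counts over all genes were 663, 616, 578 and 401 in the same order. In tissue of many cell types, more cells of a type and more RNA per cell cannot be told apart.

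**Figure D1:**
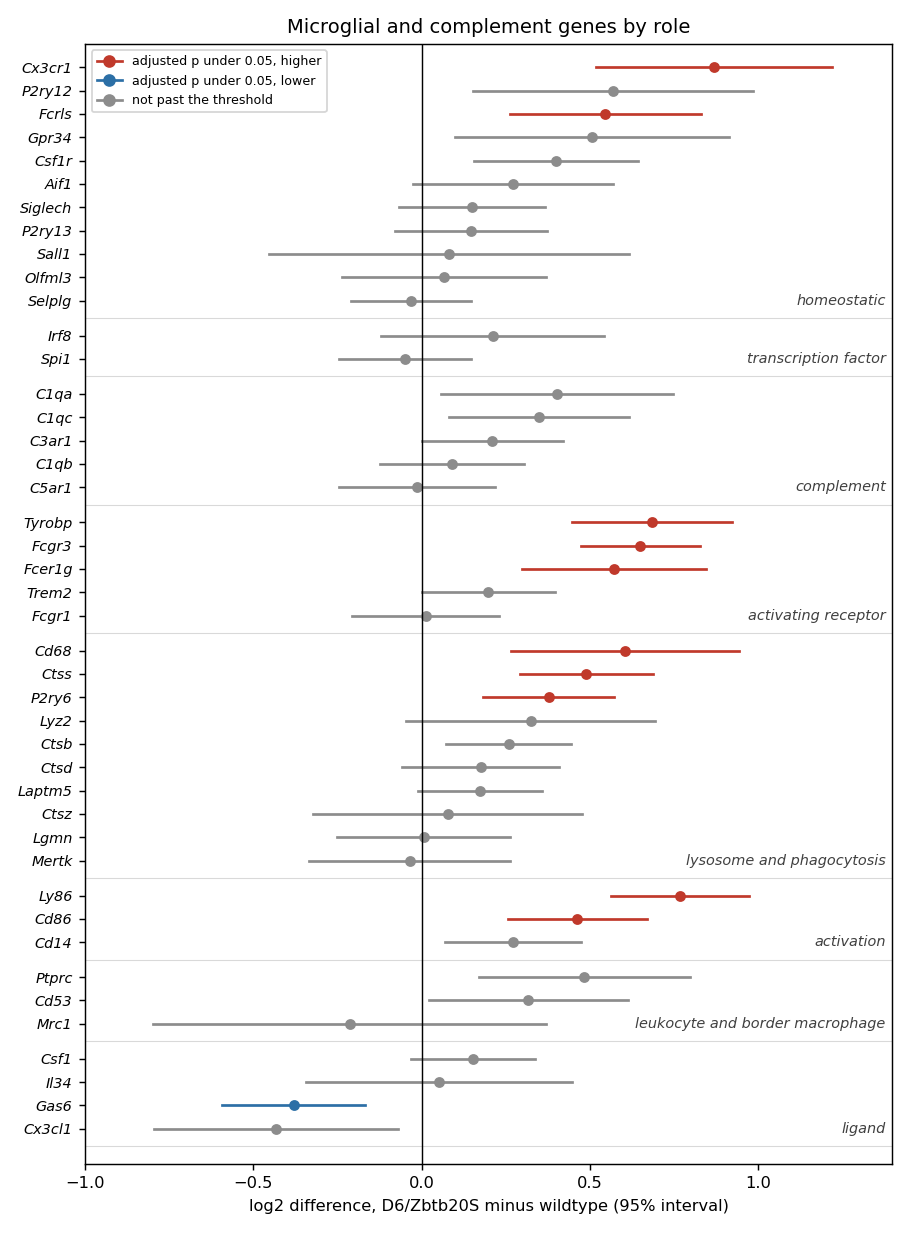
Log2 difference between D6/Zbtb20S and wildtype arrays (horizontal axis) for the 43 measured members, grouped by role, with bars for the 95% interval from limma (n = 3 arrays per group). Red points mark the 10 genes called higher, the blue point Gas6, called lower, and grey points the 32 genes that did not pass the threshold; the activating receptor and activation groups hold called genes at 0.46 to 0.77, while no complement gene is called.

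Homeostatic genes are described first. Of 11, 2 were called, both higher, and the group had a median change of 0.27. This count depended on single arrays: it was 5 without wildtype replicate 3, 4 without D6/Zbtb20S replicate 2, and 1 without D6/Zbtb20S replicate 1 or 3 or wildtype replicate 1 or 2. Equal array medians gave 4 and array weights 5, in fits where 750 and 1404 of all genes were higher. The array weights rested most on wildtype replicate 2, at 3.27 against 0.58 to 1.30 in the other arrays. Cx3cr1, the receptor through which microglia sense fractalkine from neurons, read 5.32, 5.12 and 5.58 in transgenic arrays and 4.48, 4.17 and 4.76 in wildtype arrays. The lowest transgenic array lay 0.37 above the highest wildtype array, so the groups did not overlap. The change was 0.87 ± 0.16, a 1.83-fold rise (adjusted p = 0.00827). A further Cx3cr1 probe set read low, with means of 2.12 in both groups, and was not called (adjusted p over probe sets = 0.977). As the mean of both probe sets the change of Cx3cr1 was 0.43 and still called (adjusted p = 0.0162). Fcrls, a scavenger-type Fc receptor-like gene used as a mouse microglia marker, read 5.64, 5.56 and 5.93 in transgenic and 5.07, 5.03 and 5.39 in wildtype arrays. Here too the groups stood apart, though wildtype replicate 3 came within 0.17 of the lowest transgenic array. The change was 0.55 ± 0.13 (adjusted p = 0.0281), and the call was lost without D6/Zbtb20S replicate 1 or 3 or wildtype replicate 1 or 2 (adjusted p to 0.125).

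Csf1r, the receptor for the growth factors that keep microglia alive, just missed the threshold. It read 8.39, 8.07 and 8.36 in transgenic arrays and 7.76, 7.84 and 8.02 in wildtype arrays, with no overlap but a gap of only 0.05. The change was 0.40 ± 0.11 (adjusted p = 0.0569). Csf1r was called in 7 of 14 alternative fits, among them those without wildtype replicate 3 and with equal array medians. Its other probe sets were at 0.40 and 0.14, neither called, and the mean of all was at 0.31 and not called (adjusted p = 0.0988). The purinergic receptor gene P2ry12, which steers microglial processes towards released ADP, read 4.32, 3.74 and 4.42 in transgenic and 3.54, 3.35 and 3.89 in wildtype arrays. D6/Zbtb20S replicate 2 fell among the wildtype arrays, and the change of P2ry12, 0.57 ± 0.19, was not called (adjusted p = 0.107). It was called in 5 of 13 alternative fits, among them that with the replicate number as a block (adjusted p = 0.0113) and those without D6/Zbtb20S replicate 2 or wildtype replicate 3 (adjusted p = 0.0206 and 0.041). Gpr34, a receptor for lysophosphatidylserine, read 3.71, 3.33 and 3.21 in transgenic and 2.54, 2.94 and 3.25 in wildtype arrays, with overlap (0.51 ± 0.18, adjusted p = 0.143), and the change of Gpr34 was called without wildtype replicate 3 (adjusted p = 0.0335) and with array weights.

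The other homeostatic genes had changes near 0 or intervals that spanned it. Aif1, which encodes the actin-bundling protein IBA1, was at 0.27 (95% interval -0.03 to 0.57), from a probe set that can match more than 1 transcript. Siglech, a sialic acid-binding receptor of microglia, was at 0.15 (-0.07 to 0.37), and P2ry13, another ADP receptor gene, at 0.15 (-0.08 to 0.37). Sall1, a transcription factor that maintains microglial identity but is also made by neural progenitors, was at 0.08 with the wide interval of -0.45 to 0.62. Olfml3, which encodes a secreted olfactomedin-family protein, was at 0.07 and Selplg, the P-selectin ligand gene, at -0.03. P2ry12, P2ry13, Gpr34, Siglech and Aif1 lay under the array median in wildtype tissue.

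The 2 myeloid transcription factor genes were not called. Spi1 encodes PU.1, the factor that sets the macrophage programme, and read 3.79, 3.73 and 3.96 in transgenic and 3.91, 3.91 and 3.80 in wildtype arrays. The groups overlapped, and the change was -0.05 (95% interval -0.25 to 0.15, adjusted p = 0.81). Irf8, its partner in microglial development, was at 0.21 (-0.12 to 0.54, adjusted p = 0.484).

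Activation and phagocytosis genes held most of the calls. Counting activating receptors, lysosomal and phagocytic genes and activation genes together, 8 of 18 measured members were higher (44.4%) and 0 lower, with a median change of 0.30. Without wildtype replicate 2 only 4 of the 18 were called, and higher calls over all genes fell from 739 to 376. The difference between these 8 of 18 and the 2 of 11 homeostatic genes was not tested, and it depended on single arrays: the counts were 4 and 1 without wildtype replicate 2, and 7 and 5 without wildtype replicate 3. The group medians were 0.30 and 0.27.

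Among activating receptors 3 of 5 were higher. Tyrobp encodes DAP12, the adaptor that carries the signal of Trem2 and other receptors to the kinase Syk, and read 6.39, 6.18 and 6.59 in transgenic arrays against 5.70, 5.74 and 5.67 in wildtype arrays. Every transgenic array was at least 0.44 above the highest wildtype array. The change was 0.69 ± 0.11, or 1.61-fold (adjusted p = 0.00354). Fcgr3, a low-affinity receptor for immunoglobulin G, read 5.13, 4.97 and 4.99 in transgenic and 4.40, 4.38 and 4.36 in wildtype arrays. The groups stood 0.57 apart, and the change was 0.65 ± 0.08 (adjusted p = 0.000836). Fcgr3 was also the only member called by an ordinary linear model without the shared variance (adjusted p = 0.0346).

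Fcer1g, the signalling chain that Fcgr3 needs at the cell surface, read 5.15, 5.18 and 5.59 in transgenic and 4.84, 4.70 and 4.67 in wildtype arrays. The groups did not overlap, with D6/Zbtb20S replicate 3 the highest, and the change was 0.57 ± 0.12 (adjusted p = 0.0189). That call was lost without wildtype replicate 2 (adjusted p = 0.082). The other receptors were not called. Trem2, a lipid-sensing receptor that signals through DAP12, was at 0.20 on its chosen probe set (95% interval from just under 0 to 0.40, adjusted p = 0.246) and at -0.14 on the other, and as the mean of both the change of Trem2 was 0.03 (adjusted p = 0.891). Fcgr1, the high-affinity immunoglobulin G receptor gene, was at 0.01 (-0.21 to 0.23) on its chosen probe set. The other Fcgr1 probe set was at 0.18 and not called (adjusted p over probe sets = 0.275).

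**Figure D2:**
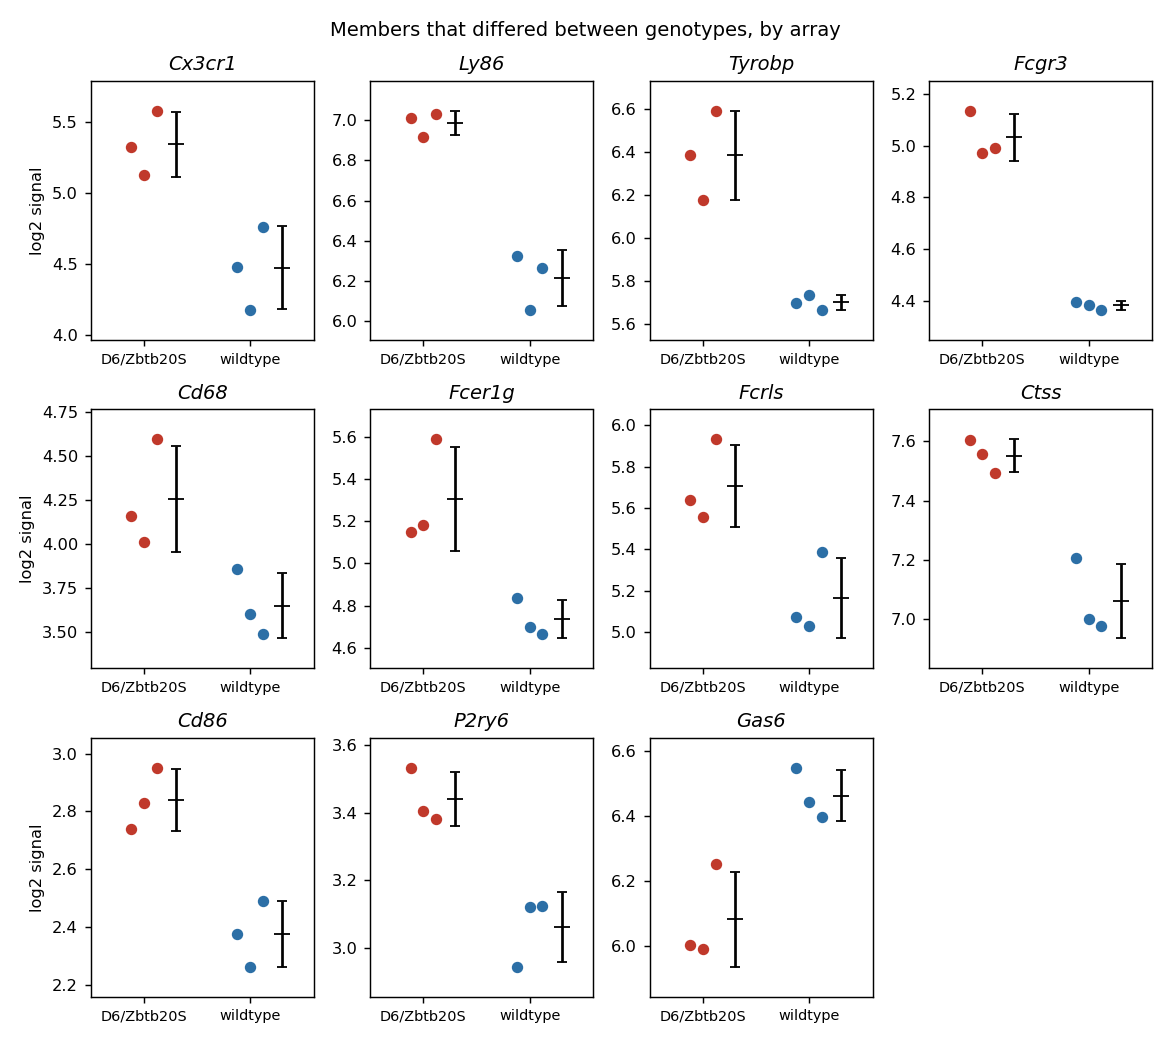
Log2 signal (vertical axis, scaled for each gene) of the 11 called members in the 3 D6/Zbtb20S arrays (red, left) and 3 wildtype arrays (blue, right), with black bars for mean ± SD. The groups do not overlap in any of these genes, and the gap runs from 0.14 in Gas6 to 0.59 in Ly86.

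Of 10 lysosomal and phagocytic genes 3 were higher, and 1 without D6/Zbtb20S replicate 1 or wildtype replicate 2. Ctss, the cathepsin that is most restricted to myeloid cells, read 7.60, 7.56 and 7.49 in transgenic and 7.21, 7.0 and 6.98 in wildtype arrays. The groups stood 0.29 apart, and the change was 0.49 ± 0.09 (adjusted p = 0.00827). Cd68, a lysosomal membrane glycoprotein gene of phagocytes, read 4.16, 4.01 and 4.59 in transgenic and 3.86, 3.61 and 3.49 in wildtype arrays. It changed by 0.60 ± 0.15 (adjusted p = 0.0403), lay under the array median in wildtype tissue, and was not called when D6/Zbtb20S replicate 1 or 3 or wildtype replicate 2 or 3 was left out (adjusted p to 0.14). P2ry6, the UDP receptor that triggers microglial phagocytosis, read 3.53, 3.41 and 3.38 in transgenic and 2.94, 3.12 and 3.12 in wildtype arrays. The arrays did not overlap, though both groups lay under the array median. The change of 0.38 ± 0.09 (adjusted p = 0.0269) was not called without replicate 1 or 2 of either group (adjusted p to 0.117).

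The other cathepsin genes among the members were not called, save Ctsb with array weights. Ctsb was at 0.26 ± 0.08 (adjusted p = 0.0998), with 9.15, 9.10 and 9.28 in transgenic and 8.90, 8.87 and 8.98 in wildtype arrays, which did not overlap. Ctsd was at 0.18 and Ctsz at 0.08, both with intervals that included 0, and Lgmn, an asparagine-specific lysosomal protease gene, was at 0.01 (95% interval -0.25 to 0.26). Lyz2, the lysozyme gene of macrophages, was at 0.32 (-0.05 to 0.69), with D6/Zbtb20S replicate 3 at 5.21 and the other transgenic arrays at 4.58 and 4.55. Mertk, a receptor kinase for apoptotic cells bridged by Gas6, was at -0.04 (-0.33 to 0.26). Laptm5, a lysosomal membrane gene of blood-derived and microglial cells, was at 0.17 on its chosen probe set and not called (adjusted p = 0.28).

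Among activation genes, Ly86 and Cd86 were higher. Ly86 encodes MD-1, the partner of the Toll-like receptor homologue RP105, and read 7.01, 6.91 and 7.03 in transgenic against 6.32, 6.06 and 6.26 in wildtype arrays. No called member had a wider gap between the groups, 0.59, and the change was 0.77 ± 0.09, or 1.70-fold (adjusted p = 0.000719). Cd86, a costimulatory ligand for T cells, read 2.74, 2.83 and 2.95 in transgenic and 2.38, 2.26 and 2.49 in wildtype arrays. Although these signals lie under the array median, the groups did not overlap, and the change was 0.46 ± 0.09 (adjusted p = 0.0139). The call was lost without wildtype replicate 2 (adjusted p = 0.0751), and the other Cd86 probe set was not called (0.10). As the mean of both, the change of Cd86 was 0.28 and called (adjusted p = 0.0335). Cd14, a co-receptor for lipopolysaccharide, was at 0.27 ± 0.09 and not called (adjusted p = 0.115), with 3.35 to 3.63 in transgenic and 3.20 to 3.28 in wildtype arrays.

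No complement gene passed the threshold, on 5 measured members of 6, where 7.71% of all genes passed. In alternative fits C1qc was called without wildtype replicate 1, and C1qa and C1qc with array weights. C1q is the recognition molecule of the classical pathway that microglia supply to the brain. The 95% intervals of the changes of its chains overlapped, and differences between the chains were not tested. C1qa was 5.71, 5.89 and 6.22 in transgenic and 5.83, 5.43 and 5.35 in wildtype arrays, with wildtype replicate 1 inside the transgenic range (0.40 ± 0.15, adjusted p = 0.172). C1qc was 5.44, 5.57 and 5.62 in transgenic and 5.43, 5.20 and 4.96 in wildtype arrays, a gap of only 0.01 (0.35 ± 0.12, adjusted p = 0.123). C1qb was at 0.09 (95% interval -0.12 to 0.30) on its chosen probe set and at 0.29 and 0.13 on the others, neither called. The receptors for the cleaved fragments of C3 and C5, which guide microglial movement, were C3ar1 at 0.21 (0.0013 to 0.42, adjusted p = 0.243) and C5ar1 at -0.01 (-0.25 to 0.22).

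Genes shared with other leukocytes and with macrophages at the brain's borders were not called either with all arrays. Ptprc, which encodes the leukocyte antigen CD45, read 3.74, 3.17 and 3.58 in transgenic and 2.89, 2.99 and 3.15 in wildtype arrays, all under the array median. The arrays did not overlap, by 0.02, and the change of Ptprc, 0.48 ± 0.14, was not called (adjusted p = 0.0688). It was called without D6/Zbtb20S replicate 2 (adjusted p = 0.0118), with equal array medians and with array weights, while its other probe set was at -0.13 and the mean of both at 0.18. Cd53, a tetraspanin gene of leukocytes, was at 0.32 (95% interval 0.02 to 0.61), with its other probe set at -0.20 and the mean of both at 0.0598 (the change of Cd53 was called in no setting). Mrc1, the mannose receptor gene of perivascular and meningeal macrophages, went the other way at -0.21 with the interval -0.80 to 0.37, and its arrays ran from 3.82 to 4.76 in the transgenic and from 4.06 to 4.97 in the wildtype group.

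The ligand genes, which are mostly made by cells other than microglia, were read as a separate group of 4. Gas6, the bridging ligand of the receptors Mertk, Axl and Tyro3, read 6.00, 5.99 and 6.25 in transgenic and 6.55, 6.44 and 6.40 in wildtype arrays. All transgenic arrays lay below all wildtype arrays, and Gas6 fell by 0.38 on the log2 scale (± 0.09, adjusted p = 0.0399). The call was not kept without replicate 1 or 2 of either group (adjusted p to 0.156), nor as the mean of its probe sets. Cx3cl1, the fractalkine gene of neurons, read 5.97, 5.63 and 6.34 in transgenic and 6.24, 6.52 and 6.47 in wildtype arrays. D6/Zbtb20S replicate 3 lay inside the wildtype range, and the change of Cx3cl1, -0.43 ± 0.16, was not called (adjusted p = 0.161). Its other probe sets were at -0.02, -0.29 and 0.09, the mean of all at -0.16 (adjusted p = 0.333). It was called without D6/Zbtb20S replicate 3 (-0.61, adjusted p = 0.0341) and with array weights. The Csf1r ligand genes Csf1, at 0.15 (95% interval -0.03 to 0.34), and Il34, at 0.05 (-0.34 to 0.45), were not called.

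Whether the calls rest on single arrays was examined by leaving out each array in turn. Cx3cr1, Ly86, Tyrobp, Fcgr3 and Ctss were called in all 6 such fits, with adjusted p to 0.0494 at most, in Ctss. Their changes stayed between 0.45, in Ctss, and 1.01, in Cx3cr1. D6/Zbtb20S replicate 3 gave the highest transgenic value in 28 of the 39 members other than ligands, and replicate 2 the lowest in 23. Meningeal and choroid plexus markers ran in the same order among transgenic arrays. Their median position was 0.38 in replicate 3, 0.07 in replicate 1 and -0.40 in replicate 2. The scale is log2 signal minus each gene's mean over the 6 arrays. In wildtype replicates 1, 2 and 3 the meningeal position was -0.24, -0.10 and 0.32. The transgenic order was not particular to these markers. In transgenic replicates 3, 1 and 2 the positions were 0.0314, -0.017 and -0.0244 over all genes. For endothelial and mural markers they were 0.15, 0.02 and -0.14, and some other lists ran in another order. For the 39 members the positions were 0.10, 0.04 and 0.28 in transgenic replicates 1, 2 and 3 and -0.14, -0.17 and -0.07 in the wildtype ones. The part of dissected meninges in these values was not tested.

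**Figure D3:**
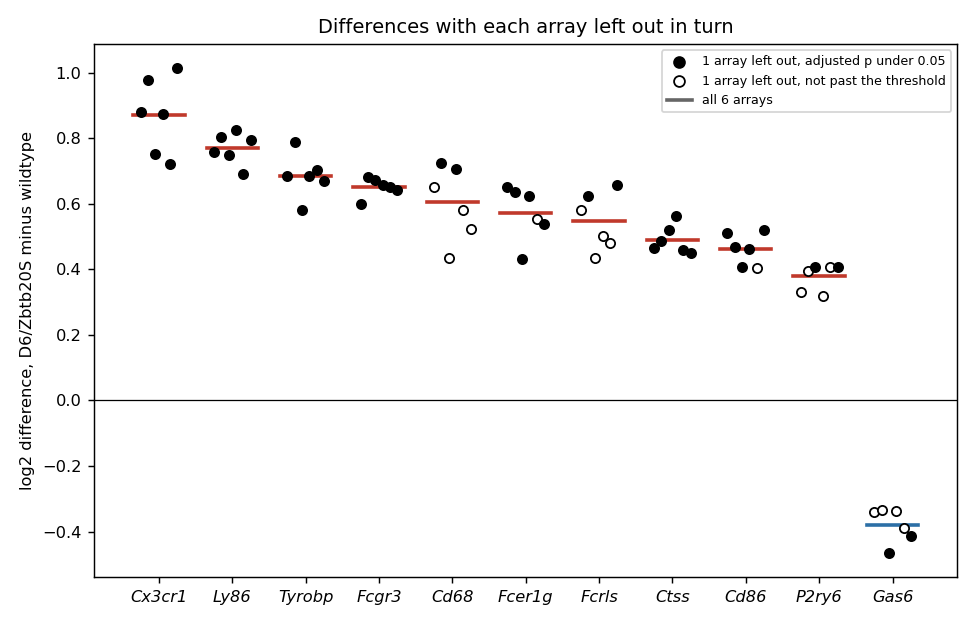
Log2 difference between D6/Zbtb20S and wildtype arrays (vertical axis) for the 11 called members with each array left out in turn (points) and with all 6 arrays (coloured bars), where filled points passed the threshold. Cx3cr1, Ly86, Tyrobp, Fcgr3 and Ctss are filled throughout, while Cd68, Fcrls, P2ry6 and Gas6 have 4 open points each.

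**Figure D4:**
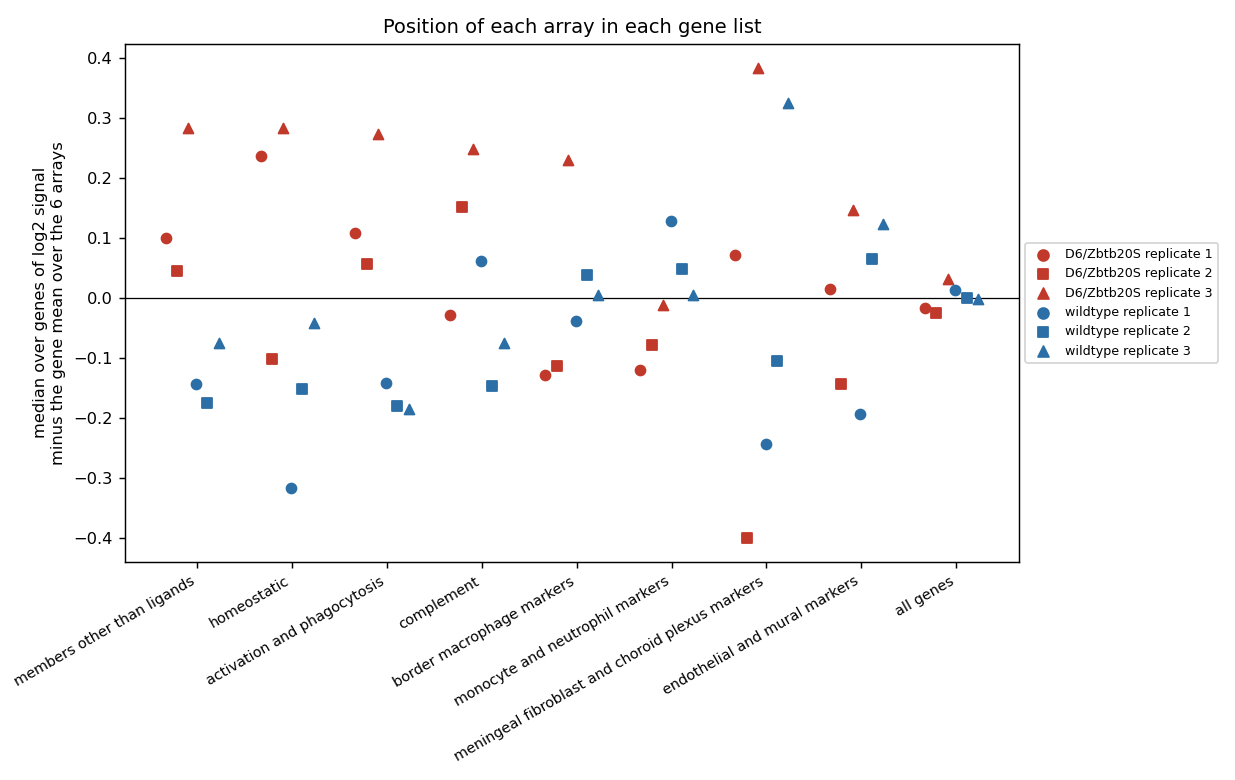
Median over the genes of a list of log2 signal minus the gene's mean over the 6 arrays (vertical axis), for D6/Zbtb20S arrays (red) and wildtype arrays (blue). In the 39 members other than ligands, and in their activation and phagocytosis genes, all transgenic arrays lie above all wildtype arrays. The groups overlap in the homeostatic and complement members, as they do in the border macrophage and meningeal lists.

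Of the 43 members, 18 had several probe sets, which gave 32 further readings. Their sign matched that of the chosen probe set in 24. When all 45037 probe sets were tested together, 2484 of them were called. In that fit the chosen probe sets of Fcrls, Cd68 and Gas6 were not called either (adjusted p over probe sets = 0.0512, 0.0697 and 0.0639). Only 1 of the 32 further ones was called, that of Laptm5. It read 5.46, 5.27 and 5.54 in transgenic and 4.65, 4.85 and 5.06 in wildtype arrays (0.57 ± 0.12, adjusted p over probe sets = 0.0329). The chosen Laptm5 probe set was at 0.17, and the other 3 were at 0.04, 0.02 and -0.21, so the Laptm5 probe sets disagree. Like that of Aif1, the chosen probe sets of C1qb, Trem2 and Laptm5 can match more than 1 transcript. So can the called further probe set of Laptm5.

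The start regions of the members were examined for the ets core recognised by PU.1, the factor encoded by Spi1, since several members were higher together. RefSeq promoter windows on GRCm38.p6, from 250 bases before to 50 after each start, were matched by symbol for 34 of the 45 members (41 windows). The stretches of 120 bases shown are of 3 genes called higher, Fcgr3, Fcrls and Ctss, and of C1qc, which was not called. Capitals mark letters covered by any motif searched.
Fcgr3 (chr1:171059395-171059514, minus strand, higher): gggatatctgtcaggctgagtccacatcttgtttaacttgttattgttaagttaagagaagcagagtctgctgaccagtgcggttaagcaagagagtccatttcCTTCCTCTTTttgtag
Fcrls (chr3:87263605-87263724, minus strand, higher): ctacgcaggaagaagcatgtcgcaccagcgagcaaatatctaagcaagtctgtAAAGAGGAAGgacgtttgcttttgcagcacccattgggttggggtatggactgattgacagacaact
Ctss (chr3:95526586-95526705, plus strand, higher): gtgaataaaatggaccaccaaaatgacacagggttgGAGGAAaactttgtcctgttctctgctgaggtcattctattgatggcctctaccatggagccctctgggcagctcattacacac
C1qc (chr4:136892995-136893114, minus strand, not called): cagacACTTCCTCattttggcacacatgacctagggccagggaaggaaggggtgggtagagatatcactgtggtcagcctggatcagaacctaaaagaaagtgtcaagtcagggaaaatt

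Both strands were searched for 7 nested or overlapping forms, so their matches are not independent. GAGGAA was in 18 of the 41 member windows (43.9%) and in 28.3% of all 32851 windows. The longer forms GAGGAAG and GAGGAAGT were in 31.7% and 9.76% of member windows and in 13.6% and 3.2% of all windows. AAAGAGGAA was in 5 member windows, of Fcgr1, Fcgr3, Fcrls and Laptm5 (12.2%), and in 1.39% of all windows. AGGAAGT was in 34.1% of member windows and 9.35% of all, GGGAAGTG in 4.88% and 2.4%, and GAGGAACT in 4.88% and 1.6%. Among the 7 genes called higher that had a window, Cd68, Ctss, Fcgr3 and Fcrls held GAGGAA, and Cx3cr1, Fcer1g and Ly86 did not. Of all 34 members with a window, 17 held GAGGAA, and a link between matches and changes was not tested. Genes with a match were found on both sides of the threshold, as the C1qc stretch shows. A match describes letters in a window and is not a site of binding.

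Other microglial genes were read beside the members. Of 14 measured, 2 were higher and 0 lower, with a median of 0.01. They were Adgre1, a surface antigen gene of macrophages (0.45 ± 0.11, adjusted p = 0.0334), and the ribonuclease gene Rnase4 (0.59 ± 0.12, adjusted p = 0.0156). Of the 6 fits that omit an array, both genes were called in 2: the omission of D6/Zbtb20S replicate 2 and that of wildtype replicate 3. Tmem119, a defining marker of mature microglia, was at -0.17 and not called, with 3.88 to 4.25 in transgenic and 4.20 to 4.28 in wildtype arrays. In the pathway downstream of DAP12 and Csf1r, 0 of 14 genes were called, with changes from -0.10 to 0.20 and a median of -0.04. Over all genes 7.71% were called, so 0 calls in a list this short is near that share. Its smallest p belonged to the phosphatase gene Inpp5d (0.16, adjusted p = 0.267) and the next to Hcls1 (0.19, adjusted p = 0.298).

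Of 13 genes known from axon-tract and disease-associated microglia, 4 were higher and 0 lower (30.8% called, median 0.20). The phagocytic lectin gene Clec7a read 4.50, 3.99 and 4.33 in transgenic and 3.60, 3.64 and 3.53 in wildtype arrays, without overlap (0.68 ± 0.12, adjusted p = 0.00819). The glycoprotein gene Gpnmb read 3.40, 3.35 and 3.77 in transgenic and 2.74, 2.74 and 2.90 in wildtype arrays (0.71 ± 0.12, adjusted p = 0.0053). The galectin gene Lgals3 changed by 0.45 ± 0.08 (adjusted p = 0.00967). Gpnmb and Lgals3 lay under the array median in both groups, and Lgals3 was not called once D6/Zbtb20S replicate 1 or wildtype replicate 2 was omitted (adjusted p to 0.057). Lpl, a lipase gene that neurons also express, was at 1.92 ± 0.16 (adjusted p = 9.4e-05), and which cells this came from was not tested.

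Among 18 further complement genes 1 was called (5.56%, against 7.71% of all genes). Masp1, a protease of the lectin pathway, read 8.56, 8.61 and 8.47 in transgenic and 7.49, 7.03 and 7.45 in wildtype arrays, with a gap of 0.98 between the groups (1.22 ± 0.12, adjusted p = 0.000242). The list median was -0.01. Of 13 other lysosomal genes only Npc2, a cholesterol carrier, was higher (0.34 ± 0.08, adjusted p = 0.0243). It was not called without D6/Zbtb20S replicate 1 or 2 or wildtype replicate 2 (adjusted p to 0.123). Of 11 other genes for the uptake of apoptotic cells 0 were higher and 2 lower. They were the Gas6 receptor gene Tyro3 (-0.70 ± 0.11, adjusted p = 0.00449) and Mfge8, a bridging protein gene (-0.37 ± 0.09, adjusted p = 0.0412). Tyro3 is also made by neurons, and Mfge8 was called in 1 of the 6 fits that omit an array, that of wildtype replicate 1.

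Inflammatory genes did not pass, though with 7.71% of all genes called, lists this short can hold 0 calls. Of 7 interferon-response genes 0 were called, with changes from -0.19 to 0.06, and all 7 lay under the array median in both groups. Ifit3 was at -0.19 (adjusted p = 0.287) and Mx1 at -0.15 (adjusted p = 0.39). Of 10 cytokine and chemokine genes 0 were called, and 9 lay under the array median in both groups. Il1a was at -0.16 (adjusted p = 0.311) and Il1b at -0.13 (adjusted p = 0.44).

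Markers of other cells that the dissected tissue could hold were read in the same fit. There 7.71% of all genes were called, so 0 calls in a short list is near that share. RMA values have no 0, so dim markers are given by their signal. In the border macrophage list 0 of 9 were called, with a median of -0.06 and a summed linear signal of 177 to 237 in transgenic and 191 to 222 in wildtype arrays. Its smallest p was that of Cbr2 (-0.29, adjusted p = 0.0937), followed by Stab1 (0.24, adjusted p = 0.35). In the monocyte and neutrophil list 0 of 10 were called and all 10 changes were negative, with sums of 112 to 120 in transgenic and 127 to 134 in wildtype arrays. The neutrophil granule genes Ltf (-0.28, adjusted p = 0.0878) and Ngp (-0.25, adjusted p = 0.158) came nearest, and 8 of the 10 lay under the array median in both groups. Lymphocyte markers had 0 of 7 called, with sums of 73.6 to 83 in transgenic and 79 to 85.6 in wildtype arrays, Cd3e at -0.14 and Ms4a1 at -0.31. Of 3 erythroid markers 0 were called (Hba-a1 at 0.13, Slc4a1 at -0.11), with sums of 24.7 to 28.3 in transgenic and 24.3 to 26.5 in wildtype arrays.

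Meningeal fibroblast and choroid plexus markers had 0 of 9 called, Dcn at 0.46 and Col3a1 at -0.43, and sums of 443 to 839 in transgenic and 534 to 902 in wildtype arrays. Endothelial and mural markers had 0 of 9 called, Pdgfrb at 0.31 and Cldn5 at -0.18, and sums of 604 to 776 in transgenic and 617 to 798 in wildtype arrays. Astrocyte and radial glia markers had 0 of 8 called, Gfap at 0.56 and Aqp4 at 0.37, and sums of 6118 to 6206 in transgenic and 5632 to 6168 in wildtype arrays. Some neural genes were lower. Of 7 oligodendrocyte lineage markers Olig1 (-0.68), Olig2 (-0.77), Mbp (-0.51) and Cnp (-0.53) were lower, and of 7 neuronal markers Tbr1 (-1.41) and Snap25 (-1.03) were. Of 7 proliferation genes 1 was lower, Rrm2 (-0.56 ± 0.11, adjusted p = 0.0119), a call lost without D6/Zbtb20S replicate 2 (adjusted p = 0.0516), and all 7 changes were negative. The part of these other cells in the members' changes was not tested.

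**Figure D5:**
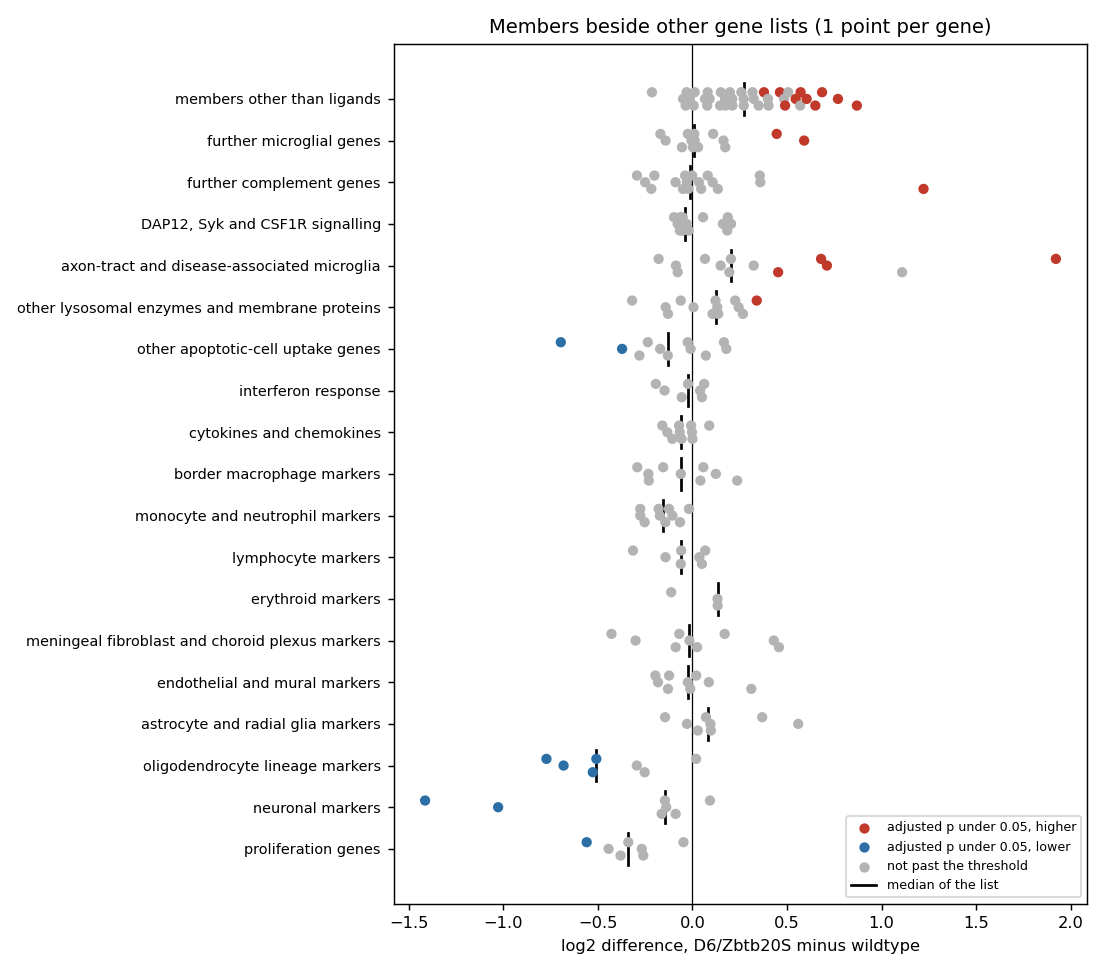
Log2 difference between D6/Zbtb20S and wildtype arrays (horizontal axis), 1 point per gene, for the 39 members other than ligands and for 18 other lists, with a black line at each list's median. The members' median is 0.27. The medians are 0.01 in the further microglial genes and 0.20 in the axon-tract and disease-associated microglia list. Those of the border macrophage list and of the monocyte and neutrophil list are -0.06 and -0.16.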

How the data were processed

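The authors deposited log2 signals for every probe set on each array. Per the submitters' processing notes, RMA and limma were used, without a stated version. Array medians ran from 3.83 to 3.97, so the scaling last applied stays unknown, and a log base of 2 was taken from the range of values (0.57 to 12.7). No probe-level data or detection call was used. After 64 control probe sets were left out, 45037 remained, of which 34945 had 1 symbol in the platform annotation, 932 had several and 9160 were not named; 34741 matched a RefSeq gene ID. A gene was read on the probe set with the highest mean, which gave 18193 genes, with no filter on low signal.

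Groups were taken from the titles in the labels. The fit used lmFit and eBayes (limma 3.58.1, R 4.3.3) with group as the only term, with Benjamini-Hochberg adjustment over all genes, and figures were drawn with matplotlib 3.10.9. Members, roles and other lists were chosen with earlier results of these data known, and so were the promoter motifs. All members are named, with the called genes of every other list, or the 2 with the smallest p where none was called. On simulated data for this comparison over 18193 genes, 200 of them changed, 0% of changes of 0.25 were recovered, 33% of 0.5 and 95.5% of 1, and false calls were 4.35% of calls at 0.5. In the data themselves 1402 genes were called, more than were changed in the simulation, so these shares need not hold for them. The number of arrays limits the precision. Alternatives were omission of each array in turn, the replicate number as a block, array weights, quantile normalization, equal array medians, removal of dim probe sets, a variance trend on intensity, averaging the probe sets of each gene, an ordinary linear model, and thresholds of 0.01 and 0.1.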

Additional observations from a re-analysis of the deposited data

How the results depend on the processing

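With 1 array left out, 5 to 12 members were called higher and 0 to 2 lower. Over all genes those fits gave 376 to 922 higher and 401 to 634 lower, against 739 and 663 in the main fit. Array weights gave 17 higher, including all 10 named in the report, and 2 lower (Cx3cl1 and Gas6). Wildtype replicate 2 had a weight of 3.27 in that fit, against 0.58 to 1.30 in the other arrays, so its calls rest largely on 1 array. The array weights also raised the counts over all genes, to 1404 higher and 1303 lower. The ordinary linear model gave 1 higher and 0 lower, and over all genes 117 and 150. A threshold of 0.01 gave 5 higher and 0 lower. With the replicate block 10 were higher (9 of them the same genes, P2ry12 gained and P2ry6 lost) and 0 lower (Gas6 lost), and with the mean of probe sets 0 were lower. The other settings gave 9 to 13 higher and 1 lower. Whether the replicate numbers pair the samples is not known. Deviations of same-numbered arrays correlated at -0.22, 0.18 and -0.01 over all genes, and not every array correlated best with its own number. Deviations within such small groups depend on each other, so these correlations cannot decide whether the arrays were paired. No called member changed sign. Among uncalled genes, the change of C5ar1 (-0.01) turned to 0.0932 with array weights and 0.0401 as the mean of probe sets. The change of Fcgr1 (0.01) turned to -0.00449 with equal array medians and -0.0113 with quantile normalization. The change of Lgmn (0.01) turned to -0.00988, -0.0228 and -0.0441 with equal array medians, quantile normalization and array weights. The change of Il34 (0.05) turned to -0.21 with array weights. With arrays left out, Sall1 ran from -0.14 to 0.34, Olfml3 from -0.10 to 0.15, Selplg from -0.0715 to 0.0088, C5ar1 from -0.094 to 0.0509, Fcgr1 from -0.0695 to 0.10, Ctsz from -0.10 to 0.26, Lgmn from -0.12 to 0.11, Mertk from -0.15 to 0.11, Mrc1 from -0.47 to 0.051 and Il34 from -0.15 to 0.20. The causes were not tested. Of the 32 uncalled members 24 were called in no alternative fit. Further, 11 members lay under the array median in both groups. Differences of 0.25 were not recovered in the simulation, where fewer genes changed (200) than were called in these data (1402).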

Other observations

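Igf1, a growth factor gene of microglia and of neurons from the list of axon-tract microglia, was chosen here after its values were seen. It read 6.71, 6.66 and 6.82 in D6/Zbtb20S arrays and 4.91, 5.30 and 6.65 in wildtype replicates 1, 2 and 3. Wildtype replicate 3 lay 0.01 below the lowest transgenic array, and the change of 1.11 was not called (limma adjusted p = 0.0986). The same wildtype array lay above the other wildtype arrays on a Zbtb20 probe set, at 7.64. Lpl, of the same list, read 11.59, 11.66 and 11.54 in transgenic arrays and 9.67, 9.29 and 10.07 in wildtype arrays, and there wildtype replicate 3 stayed 1.47 below the lowest transgenic array.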
